A study of Mus musculus with 2 samples.

Results

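The mitochondrial ribosomal proteins were followed here in 2 sorted T cell samples from mouse lymph nodes. Their genes were taken by name, as every probe of the deposited value table whose annotated gene symbol begins with Mrpl or Mrps and a digit, whatever its value. The rule took 92 probes of 69 genes, 42 of the large and 27 of the small subunit by symbol, among 8116 named genes on the table. RefSeq lists 78 protein-coding genes of these names, and the other 9 were not analysed here. Those were Mrpl19, Mrpl21, Mrpl32, Mrpl39, Mrpl41, Mrpl44, Mrpl45, Mrps14 and Mrps36.

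Mitochondria make a few core subunits of the respiratory chain on ribosomes of their own. The ribosomal RNAs of these particles are encoded in mitochondrial DNA, whereas every protein of the small and the large subunit is encoded in the nucleus, made in the cytosol and imported. The small subunit binds the messenger RNA and decodes it. The large subunit joins the amino acids, and its exit tunnel delivers the chain to the inner membrane. T cells that leave quiescence are known to need mitochondrial translation to enlarge their respiratory capacity.

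One library held RNA labelled type 1 invariant natural killer T (NKT) cells, which recognise lipids on CD1d through a T cell receptor of restricted diversity. The other held RNA labelled conventional CD4 T cells, which recognise peptides on MHC class II. Both were labelled as lymph node of female mice kept free of specific pathogens, and biotinylated cRNA made from total RNA was read on Illumina bead arrays. The cells were obtained by magnetic or fluorescence sorting, with no statement of which was used for which sample. The labels name no treatment, genotype, strain or age, and do not say whether animals were pooled. Each group was 1 array, so no value has a replicate and no test between the libraries could be run. Differences are given by size alone. Values are the authors' log2 signals, which have the same distribution in both libraries, and a difference is the library labelled invariant NKT minus the library labelled conventional CD4 T. A gene counted as detected where a probe reached a log2 signal of 7.83. This was the lowest signal with a detection p under 0.01 in the library labelled conventional CD4 T. The same level was applied to the invariant NKT values, whose own detection p-values were not used for it.

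Marker genes of the named cell types fitted only part of the labels. All 10 listed markers of invariant NKT cells were detected in the library labelled invariant NKT, at 10.45 to 14.97, and all 10 were 2-fold or more higher there. The marker lists were chosen with earlier results of these data known, so these counts are no independent check of the label. The T cell genes Cd3e, Cd3d and Cd3g differed by -0.16 to 0.30. Cd8b1, a chain of the CD8 co-receptor, measured 9.33 in the library labelled invariant NKT against 15.60 in the one labelled conventional CD4 T, and Cd4 differed by -0.61. The Y-linked gene Eif2s3y differed by -2.55, and Kdm5d (7.61 against 9.46) and Uty (7.63 against 8.35) were under the detection level among invariant NKT values only, although both samples were labelled female. Red cell and hepatocyte genes were brighter in the library labelled invariant NKT, with 3 of 3 and 5 of 5 measured members 2-fold or more higher. With undetected values set to the detection level, their medians were at least 4.68 and 1.35. The hepatocyte genes ranged from 9.02 to 12.31 there, and none reached detection in the other library, at 7.09 to 7.41. Of 6 measured markers of naive T cells, 5 were lower by 2-fold or more among invariant NKT values, with Igfbp4 at 8.19 against 13.72 and Lef1 at 9.12 against 11.03. Among the other listed cell types, 2 of 3 measured myeloid genes were higher by 2-fold or more and 1 was lower, and 1 of 3 B cell genes was lower. In bulk RNA, fewer cells of a type and less RNA per cell cannot be told apart, and the part of these other cells in the values below was not tested. A second conflict concerns the files. In rank, over the 92 member probes, the values for invariant NKT cells followed their own non-normalized column with a Spearman's rho of only 0.860. With the non-normalized column of conventional CD4 T cells their rho was much the same, at 0.856. The conventional CD4 T columns matched each other with a rho of 1. In the non-normalized table the member probes were nearly equal, at log2 ratios of -0.26 to 0.20. All differences below therefore rest on the authors' value table.

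Mitochondrial ribosomal protein genes were detected in both libraries and lay close together. Of the 69 genes, 68 were detected in both. The exception was Mrpl51, a protein of the large subunit with no bacterial counterpart, which passed the level among invariant NKT values only. The median difference of the members was 0.09, with an interquartile range of -0.27 to 0.43, beside a median of -0.07 and an interquartile range of -0.54 to 0.45 over the 7278 named genes detected in at least 1 library. By sign, 41 of the 69 members (59.4%) were higher in the library labelled invariant NKT, where 46.1% of all detected genes were. Differences under 0.5 in size were held by 44 members (63.8%), beside 50.2% of all detected genes. These shares describe 2 arrays and carry no test.

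**Figure D1:**
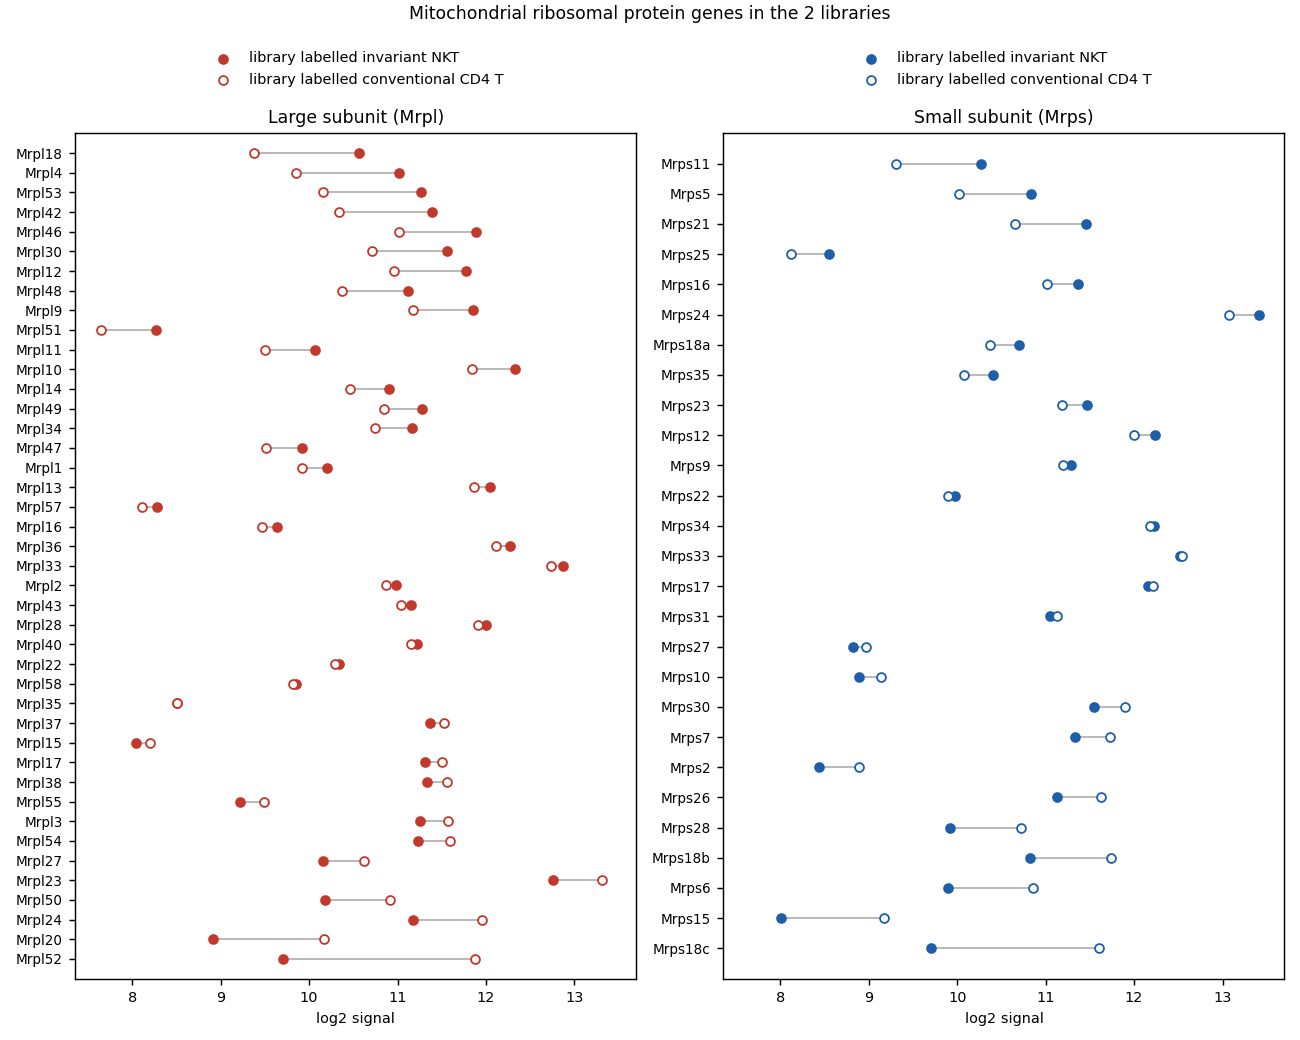
Log2 signal of each mitochondrial ribosomal protein gene at its brightest probe, in the library labelled invariant NKT (filled points) and in the library labelled conventional CD4 T (open points), with the large subunit on the left, the small subunit on the right and genes ordered by their difference. Most pairs of points lie close together, and in the large subunit Mrpl18 stands at the top with a difference of 1.19 and Mrpl52 at the bottom with -2.18.

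Differences of 2-fold or more were few and ran both ways. In the library labelled invariant NKT, 4 members (5.80%) were 2-fold or more higher, beside 9.37% of all detected genes. Likewise 4 members (5.80%) were 2-fold or more lower, beside 10.3% of all detected genes. Either way apart were 8 members, beside 19.6% of all detected genes. Both shares were below those of the background, so a 2-fold difference was not more frequent among these genes than elsewhere on the table. Among other genes within the members' range of mean signal the background was 10.7% higher and 11.8% lower.

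All 4 of the higher members belonged to the large subunit, where they made up 9.52% of its 42 genes, near the 9.37% of all detected genes. Mrpl18, a protein of the central protuberance whose bacterial counterpart binds 5S ribosomal RNA, measured 10.57 in the library labelled invariant NKT against 9.38 in the library labelled conventional CD4 T, a 2.28-fold difference (1.19 on the log2 scale). Mrpl4, a counterpart of the bacterial tunnel protein L4, measured 11.02 against 9.85, a 2.25-fold difference. The library labelled invariant NKT gave 11.27 for Mrpl53, a mitochondria-specific protein near the base of the L7/L12 stalk, and the library labelled conventional CD4 T gave 10.16, a 2.15-fold difference. Mrpl42, another mitochondria-specific protein of the large subunit, measured 11.39 against 10.33, a 2.07-fold difference. Each of these genes therefore lay just past the 2-fold line. The member just inside it was Mrps11, a small subunit protein of the platform, at 10.27 against 9.31 and a difference of 0.96. With its 2 probes averaged Mrps11 differed by 1.35, so a small subunit gene then also passed the line.

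The 4 lower members came from both subunits, and 3 of them differed by more than any higher member. Mrpl52, a mitochondria-specific protein of the large subunit, measured 9.70 in the library labelled invariant NKT against 11.88 in the library labelled conventional CD4 T, a difference of -2.18. Mrps18c, which is one of several mammalian counterparts of bacterial protein S18, measured 9.70 against 11.60, a difference of -1.90. Mrpl20, which helps large subunit assembly in bacteria, measured 8.91 against 10.17, a difference of -1.26. Mrps15, the counterpart of a bacterial protein that binds the small subunit RNA early in assembly, measured 8.01 against 9.17, a difference of -1.17. Mrps15 was thus close to the limit of detection among invariant NKT values. Just inside the 2-fold line lay Mrps6 at 9.90 against 10.85 (-0.96) and Mrps18b, a further S18 relative, at 10.82 against 11.74 (-0.92).

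To place these members on the genome, the promoter windows of the highest member, of the 2 lowest members and of Mrpl12 are printed, each running from 250 bases before to 30 bases after the start of transcription in RefSeq on GRCm38.p6. Mrpl12 is shown because its product also binds the mitochondrial RNA polymerase and because its window holds an NRF-1 match. Capitals mark matches, on either strand, to an NRF-1 motif (GCGCA and GCGC with 1 base of any kind between them), an ETS motif as bound by GABP (CCGGAAGT), a YY1 motif (AAGATGGC) or the E-box CACGTG. The windows lie at chr17:12916062-12916341 on the minus strand for Mrpl18, chr11:120484387-120484666 on the plus strand for Mrpl12, chr5:100798509-100798788 on the plus strand for Mrps18c and chr14:54426659-54426938 on the plus strand for Mrpl52.
Mrpl18: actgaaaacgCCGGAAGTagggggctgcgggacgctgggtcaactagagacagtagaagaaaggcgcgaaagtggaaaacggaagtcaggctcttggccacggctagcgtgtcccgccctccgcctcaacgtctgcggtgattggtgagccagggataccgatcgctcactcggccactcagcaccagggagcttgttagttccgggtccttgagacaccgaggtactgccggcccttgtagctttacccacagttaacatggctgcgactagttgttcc
Mrpl12: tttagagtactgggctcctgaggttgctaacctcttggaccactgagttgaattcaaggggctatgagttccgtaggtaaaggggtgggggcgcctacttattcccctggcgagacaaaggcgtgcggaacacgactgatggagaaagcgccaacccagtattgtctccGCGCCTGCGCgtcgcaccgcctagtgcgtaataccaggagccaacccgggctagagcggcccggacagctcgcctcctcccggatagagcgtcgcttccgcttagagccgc
Mrps18c: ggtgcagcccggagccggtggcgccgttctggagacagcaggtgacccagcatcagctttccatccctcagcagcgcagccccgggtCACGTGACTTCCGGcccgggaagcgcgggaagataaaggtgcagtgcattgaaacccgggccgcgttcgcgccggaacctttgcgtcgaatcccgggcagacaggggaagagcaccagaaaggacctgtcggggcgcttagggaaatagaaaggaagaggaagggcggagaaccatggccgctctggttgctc
Mrpl52: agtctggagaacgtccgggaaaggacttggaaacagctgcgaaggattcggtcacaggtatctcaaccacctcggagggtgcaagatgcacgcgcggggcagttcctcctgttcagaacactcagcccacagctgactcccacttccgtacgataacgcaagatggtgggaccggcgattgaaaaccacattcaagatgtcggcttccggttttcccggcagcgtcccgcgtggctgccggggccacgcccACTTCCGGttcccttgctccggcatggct

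These factors are known regulators of nuclear genes for mitochondrial proteins, and the matches are descriptions of letters, not of binding. The Mrpl18 window held an ETS match 240 bases before the start, and the Mrpl52 window held one that begins 2 bases after it. In Mrps18c an E-box at -163 and an ETS match at -157 stood side by side with no shared base. Among the 61 members with a window in the table, each searched from 250 bases before to 50 bases after the start, 12 held the ETS motif (19.7%), 11 the YY1 motif (18.0%), 9 the NRF-1 motif (14.8%) and 5 the E-box (8.20%). The shares over 6030 detected genes with a window were 10.5%, 6.20%, 12.8% and 12.4% in the same order of motifs, and over 32851 windows of all genes 3.89%, 2.75%, 4.60% and 7.15%. The median difference was 0.45 for the members with an NRF-1 match and 0.09 for those without, and -0.03 with an ETS match against 0.16 without. For the YY1 motif it was 0.24 with a match against 0.09 without. For the E-box it was -0.16 with a match against 0.12 without. Those medians describe the members and were not tested. The windows had a median GC content of 58.7%, beside 60.3% for detected genes.

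Between the subunits the medians lay close, with the large subunit slightly above the small. Large subunit genes had a median difference of 0.15, and 28 of 42 (66.7%) were higher in the library labelled invariant NKT. Small subunit genes had a median of -0.02, and 13 of 27 (48.1%) were higher. Over all detected genes 46.1% were higher. The subunit medians thus differed by 0.17, and without replicates that difference could not be tested. Of the large subunit, 4 genes (9.52%) were 2-fold or more higher and 2 (4.76%) lower. Of the small subunit, 0 were higher and 2 (7.41%) lower. Over all detected genes the shares were 9.37% higher and 10.3% lower. Symbols do not always give the place of a protein. Mrps30 and Mrps18a lie in the large subunit in solved structures, and they differed by -0.35 (11.55 against 11.90) and 0.33 (10.70 against 10.37). With both counted there, the medians remained 0.15 and -0.02.

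Within the large subunit, groups defined by place in the particle gave different medians over few genes. These groups were chosen with earlier results of these data known. The stalk recruits the elongation factors of translation, and 4 of its 5 listed members were higher in the library labelled invariant NKT (median 0.57). Mrpl12, the L7/L12 protein itself, measured 11.78 against 10.96 (0.82). Mrpl11, which holds the base of the stalk, measured 10.07 against 9.50 (0.57), and Mrpl10, the anchor of the Mrpl12 copies, measured 12.33 against 11.84 (0.48). Mrpl54 was the exception at 11.23 against 11.59 (-0.36), and Mrpl53 has been given above.

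The central protuberance faces the small subunit and contacts transfer RNAs. Of its 5 listed members, 4 were higher in the library labelled invariant NKT, with a median of 0.75. Proteins of this place that were not listed are not in these counts. Mrpl46 measured 11.88 in the library labelled invariant NKT against 11.01 in the library labelled conventional CD4 T (0.87). Mrpl48 measured 11.12 against 10.37 at its brightest probe, and its difference of 0.75 was the group median. With its 3 probes averaged Mrpl48 differed by 0.38. The group median then took that value, under the 0.57 of the stalk. Mrpl40 was near equal at 11.22 against 11.15 (0.06), as was Mrpl38 at 11.33 against 11.56 (-0.23). Differences among the 5 listed genes, each at its brightest probe, therefore ran from -0.23 to 1.19, the value of Mrpl18.

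The proteins listed around the mouth of the peptide exit tunnel showed no common direction over 4 measured members, with a median of -0.26. Mrpl4 was not on that list, and counting it, a choice made after its value was seen, gave a median of 0.04 over 5 genes. Mrpl24 measured 11.17 in the library labelled invariant NKT against 11.96 in the library labelled conventional CD4 T (-0.78). Mrpl23 measured 12.76 against 13.31 (-0.55). Mrpl22 was near equal at 10.33 against 10.29 (0.04), and Mrpl47 was higher at 9.92 against 9.51 (0.41). RefSeq names pseudogene copies of Mrpl23, Mrpl27 and Mrpl48, so signals of these members may include cross-hybridisation, which was not tested.

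Members listed with a bacterial counterpart and members listed as specific to mitochondria gave like medians. In the large subunit these were 0.16 over 27 genes with a counterpart and 0.11 over 15 without, Mrps30 among them. In the small subunit they were -0.06 over 15 genes and 0.01 over 10. Mrpl58, a peptide release factor built into the large subunit, and Mrps18a were in none of these lists, and Mrpl58 differed by 0.03. The small subunit genes listed as mitochondria-specific had the narrowest spread of these lists, with 8 of 10 under 0.5 in size. Mrps18b was lowest there at -0.92, and it was listed there although it is an S18 relative. The counterpart list of the same subunit held both Mrps18c and the higher members Mrps11, Mrps5 and Mrps21. Mrps5, which lines the messenger RNA entry, measured 10.83 against 10.02 (0.81), and Mrps21 measured 11.45 against 10.65 (0.81).

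Further members stood between these and the 2-fold line. Mrpl30 measured 11.55 in the library labelled invariant NKT against 10.71 in the library labelled conventional CD4 T (0.84). Mrps28, a small subunit protein, measured 9.91 against 10.72 (-0.81). The members of highest mean signal were Mrps24, Mrpl23 and Mrpl33. Mrps24, the counterpart of bacterial S3 at the messenger RNA entry, measured 13.41 against 13.08 (0.33), and Mrpl33 measured 12.87 against 12.73 (0.13). Mrpl51 measured 8.27 against 7.64, near the detection level. In the non-normalized table this probe had detection p-values of 0.035 and 0.043 in the same order, both over the limit used, and its second probe differed by 0.03, so its detection in either library is uncertain. At 1.5-fold, 12 members were higher, beside 18.1% of all detected genes, and 9 were lower, beside 21.4%.

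**Figure D2:**
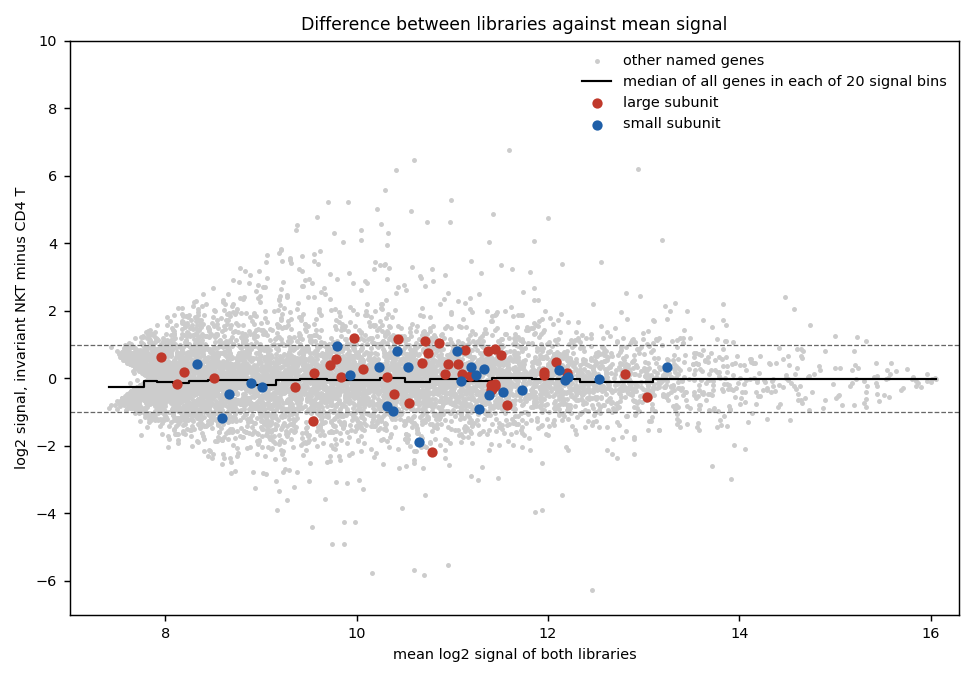
Difference in log2 signal (library labelled invariant NKT minus library labelled conventional CD4 T) against the mean log2 signal of both libraries, for large subunit genes (red), small subunit genes (blue) and all other named genes detected in at least 1 library (grey), with dashed lines at 2-fold and a black line at the median of all genes in each of 20 bins of mean signal. Of the 69 members, 44 lie above the median of their bin.

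The members were also set beside genes of like mean signal. Each difference was taken relative to the median difference of all detected genes in the same of 20 bins of mean signal. These bin medians were small, and their average over the members was -0.05. Relative to them the members had a median of 0.15, and 44 of 69 (63.8%) lay above the median of their bin. For the large subunit this was 29 of 42 genes (median 0.20) and for the small subunit 15 of 27 (median 0.06). The spread was narrower than among genes of like signal, at an interquartile range of 0.70 beside an average of 0.99 in the bins where the members fell. Of the 23 members of lowest mean signal 3 (13.0%) were 2-fold or more apart, beside 23.9% of all detected genes in the same range. Among the middle 23 there were 5 (21.7%), beside 21.4%. The 23 of highest mean signal held 0, beside 19.4%.

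Error could be judged only from genes with several probes, which leaves out the spread between animals, sorts and arrays. Of the 69 members, 51 had 1 probe and 18 had 2 or more. The SD of a gene's log2 difference from probe to probe, taken over its 2 brightest probes, was 0.41 over these 18 members and 0.59 over 2143 other genes. In 12 of the 18 (66.7%) both probes gave the same sign, beside 68.7% of the other genes. Probes over 1 apart were held by 1 of the 18 members (5.56%) and by 20.2% of the other genes. The differences of the 2 probes correlated less closely over the members, with a Spearman's rho of 0.40 against 0.49 over the other genes. Differences also varied less over the 69 members (SD 0.66) than over all detected genes (SD 0.95). The other genes were not matched for signal, so these values do not rank the members' reliability.

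None of the 8 members that were 2-fold or more apart had a second probe on the table, so none of these calls was checked within its gene. Mrpl43, a mitochondria-specific protein of the large subunit, was the member whose probes were over 1 apart. Its brightest probe measured 11.16 in the library labelled invariant NKT against 11.04 in the library labelled conventional CD4 T (0.11). The second probe measured 10.87 against 9.41 (1.46). Mrps11 was higher at both probes, with 0.96 at the brightest and 1.75 at the second (10.66 against 8.91), and their mean signals were nearly equal. Mrps18b differed by -0.92 at the brightest probe but by 0.03 at the second, and Mrps5 by 0.81 and -0.06. The 2 brightest probes of Mrpl48 gave 0.75 each, and its remaining probe gave -0.35. Both probes of Mrps26 were lower, at -0.50 and -0.58.

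**Figure D3:**
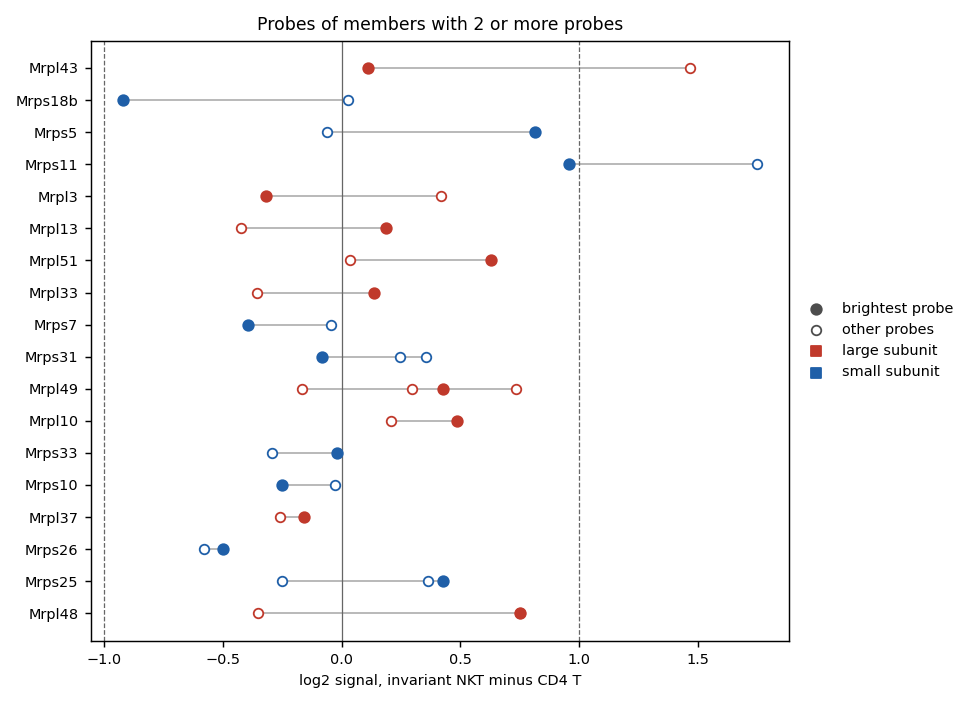
Difference in log2 signal (library labelled invariant NKT minus library labelled conventional CD4 T) at every probe of the 18 members with 2 or more probes, with the brightest probe filled, the others open, the large subunit in red and the small subunit in blue. Genes are ordered by the distance between their 2 brightest probes, from Mrpl48 at the bottom to Mrpl43 at the top (1.35 apart).

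A pooled list of other genes around mitochondrial translation had a lower median than the large subunit. This list held translation factors, aminoacyl-tRNA synthetases, assembly factors, ribosomal proteins with other symbols, and genes of mitochondrial transcription, RNA and DNA maintenance. Medians of its parts ran from -0.07 for the translation factors to -0.52 for mitochondrial transcription, RNA and DNA maintenance. Of the 53 genes of the whole list on the table, 52 were detected in at least 1 library, with a median difference of -0.26. In the library labelled invariant NKT 13 of them (25%) were higher, beside 46.1% of all detected genes. At 2-fold or more, 1 gene was higher in that library and 6 were lower. The share of lower genes, 11.5%, was near the background of 10.3% given above, and that of higher genes, 1.92%, was below the background of 9.37%.

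Among the translation factors, Tufm, which brings aminoacyl-tRNAs to the mitochondrial ribosome, measured 13.04 in the library labelled invariant NKT against 11.85 in the library labelled conventional CD4 T, a 2.29-fold difference. Tsfm, its nucleotide exchange factor, measured 9.67 against 9.08 (0.59). Mtrf1l, a release factor that ends the chain, was lower at 7.93 against 9.63 (-1.70). The median of the 9 detected factors was -0.07, as it was over all detected genes.

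The list of mitochondrial transcription, RNA and DNA maintenance held 3 of the 6 lower partners. Hsd17b10 and Trmt10c, subunits of the RNase P that cuts transfer RNAs out of mitochondrial transcripts, measured 10.44 against 12.37 (-1.93) and 8.32 against 9.88 (-1.56). Ssbp1, which binds single-stranded mitochondrial DNA, measured 9.46 against 10.88 (-1.42). That list also holds the DNA polymerase subunits Polg and Polg2 and the helicase Twnk. Its 14 detected genes had a median of -0.52. Of these, 3 (21.4%) were higher, none of them 2-fold, beside 46.1% of all detected genes. Tfam, which packages and transcribes mitochondrial DNA, differed by -0.90, at 10.18 against 11.09.

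The remaining 2 lower partners were assembly and modification factors. Mterf3, which is needed for assembly of the large subunit in mice, measured 9.46 in the library labelled invariant NKT against 10.99 in the library labelled conventional CD4 T (-1.54). Mrm1, which methylates the large ribosomal RNA, measured 9.93 against 11.21 (-1.28). Rbfa and Ddx28, a maturation factor of the small subunit and an RNA helicase of the large one, were among the highest partners at 0.61 and 0.58. The 11 detected mitochondrial aminoacyl-tRNA synthetases had a median of -0.37 (-0.32 with undetected values set to the detection level), with Sars2 highest at 0.73 and none 2-fold apart. Of the ribosomal proteins with other symbols, Dap3, Chchd1 and Ptcd3 were measured and differed by -0.15, -0.24 and -0.82.

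**Figure D4:**
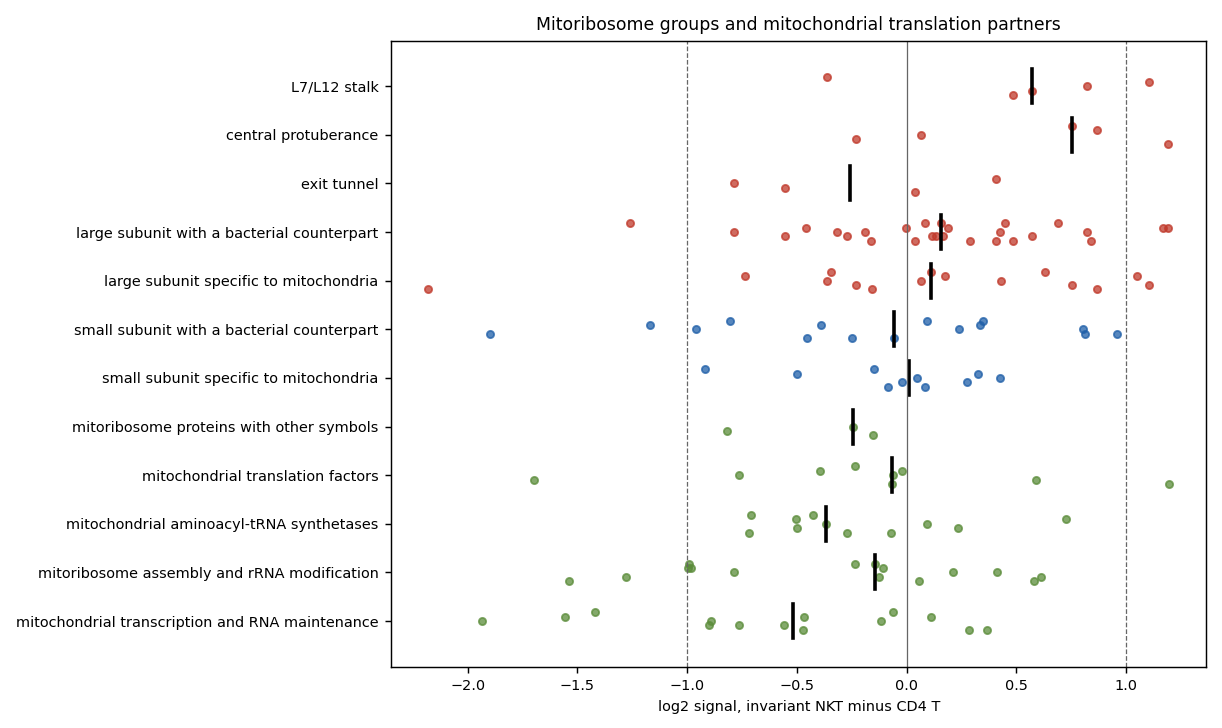
Difference in log2 signal (library labelled invariant NKT minus library labelled conventional CD4 T) of each detected gene, by place in the large subunit, by bacterial counterpart and for the partners of mitochondrial translation, with red for the large subunit, blue for the small, green for partners, a black bar at each median and dashed lines at 2-fold. Genes of the first 3 groups appear again among the large subunit lists. With each gene at its brightest probe, the listed central protuberance genes have the highest median of these groups (0.75). With the probes of Mrpl48 averaged that median becomes 0.38, under the 0.57 of the stalk. Mitochondrial transcription and RNA maintenance (with DNA maintenance genes) has the lowest (-0.52).

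Set beside 2 related families, both taken by the beginning of the gene symbol, the members had a median between theirs. Such a choice can also take genes that are not part of these particles, such as kinases of ribosomal proteins or assembly factors of complex I. Their part in the medians was not tested. Genes with symbols of cytosolic ribosomal proteins, 61 detected, had a median of -0.22 (-0.15 with undetected values set to the detection level). Of these, 27.9% were higher among invariant NKT values, where 46.1% of all detected genes were. Genes with symbols of respiratory chain subunits, 71 detected, had a median of 0.38 with 69.0% higher. The median of the mitochondrial ribosomal proteins was 0.09. Without replicates these differences between families could not be tested.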

How the data were processed

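RNA of the 2 samples was hybridised to 1 Illumina bead array each, and groups follow the cell type in the labels. Per the submitters' processing notes the arrays were read with GenomeStudio 2009.2, with no further step stated there. Of the deposited tables, one gives non-normalized intensity and a detection p-value per sample for 25697 probes, per the file headers, and the other gives log2 values for 11866 probes. The deposited log2 columns, once sorted, were equal within 0.00025, as quantile normalisation leaves them. The deposited invariant NKT log2 column does not follow its non-normalized one (Spearman's rho 0.822 over all probes of the log2 table). Against the non-normalized conventional CD4 T column its rho was 0.823. Columns of the log2 table are named by sample, so that table was used nonetheless. That departs from the usual order, in which signals from the scanner come first.

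Probes were named from the platform annotation (11155 with 1 symbol, 711 with none, 0 with several), and all 69 members matched RefSeq for GRCm38.p6, which supplied the promoter windows. Each gene was read at its brightest probe by mean log2 signal. With 1 array per group no p-value was computed, and genes were counted at 2-fold or more. For a gene detected in 1 library, 2-fold counts took the undetected value at the detection level, while medians and ranges took the values as deposited unless stated (median of all detected genes -0.07, or -0.05 with that level). Depth has no meaning here, and the number of arrays limits the precision. Gene lists, the members and the rule for named genes were chosen with earlier results of these data known. The rule took members 2-fold or more apart, the 8 highest and 8 lowest, the 3 of highest mean signal, those with probes over 1 apart, those detected in 1 library and the members of 3 structural groups. It also took Mrps30, Mrps18a and the partners at both ends. Other genes are named because their values were seen. Counting code was tested on simulated data. Python 3.11.15, pandas 2.3.3, R 4.3.3 and limma 3.58.1 were used.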

Additional observations from a re-analysis of the deposited data

How the results depend on the processing

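No paired analysis was possible because each group has 1 array. Over the alternatives other than neqc (detection filter, probe choice, background subtraction, loess centring and member choices), the median difference of the members stayed between 0.08 and 0.13, that of the large subunit between 0.13 and 0.18 and that of the small between -0.03 and 0.05. The subunit medians differed by 0.09 to 0.18, and the partners' median lay between -0.38 and -0.22. The between-probe SD ranged from 0.41 to 0.73, the last with background subtracted. Under the same alternatives 4 to 6 members were 2-fold or more higher and 4 or 5 lower. At 1.5-fold, 12 members were higher and 9 lower. In the non-normalized table normalised with neqc (offset 16) 0 members were 2-fold higher and 0 lower, and the 30 named members measured there ran from -0.25 to 0.13. There the 8 members called lay between -0.24 and 0.04, Mrpl4 turning to -0.24, all far from 2-fold. Medians there turned sign too, to -0.01 for all members, for the large subunit, for large minus small and against genes of like signal, and to 0.01 for the partners. The between-probe SD was 0.11. The tables conflict for invariant NKT cells, and the cause was not tested. Uses of the second probe, of Mrpl4 in the tunnel list, of subunits by structure and without members with a pseudogene copy were chosen after seeing the data.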
